A study of Homo sapiens with 8 samples.

Results

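The promoters of the cytosolic ribosomal protein genes were examined in the human ovarian cancer cell line A2780 with ATAC-seq, an assay that reads open DNA through the sites at which the transposase Tn5 can insert. Members were the protein-coding genes of the hg38 RefSeq table whose symbol begins with RPL or RPS followed by a digit or P, together with RPSA, leaving out the S6 kinases and pseudogenes. The rule gave 91 genes of 20056 protein-coding genes. Each gene was represented by its gene-end peak, the peak with the highest mean level among those lying 1 kb or less from the start or end of the gene, and 89 of the 91 had one, against 15952 of all protein-coding genes. The 2 members on chromosome Y had none, because the peak table used here holds no peak on that chromosome.

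The 8 libraries came from 4 groups of 2. The tested groups were A2780 cells resistant to cisplatin (CpR), a platinum drug that crosslinks DNA, cells resistant to paclitaxel (TxR), a drug that stabilises microtubules, and cells resistant to both drugs (TxCpR, called dual-resistant here). They were set against A2780 control cells, and the labels give all 4 groups the same genotype, WT. The treatment labels name cisplatin, paclitaxel, or both for the resistant lines and none for the control. Whether drug was present at collection, whether a line is 1 clone, and whether a group's 2 libraries are separate cultures is not stated in the labels, so the p-values measure the spread between libraries only.

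The 89 members comprised 46 proteins of the large ribosomal subunit, 31 of the small subunit, 8 paralogs of standard ribosomal proteins, 3 readthrough genes that join a ribosomal protein gene to its neighbour, and RPS19BP1, a protein that binds RPS19 and met the symbol rule without being a ribosomal protein. Paralogs included RPL22L1, RPL39L, RPL26L1, RPL36AL and RPL10L, the last a testis-expressed copy of RPL10. The readthrough genes RPS10-NUDT3 and RPL36A-HNRNPH2 had the same gene-end peak as RPS10 and RPL36A, which left 87 distinct peaks. Gene ends of other protein-coding genes used the same peak as 28 of the members, so that the value of such a peak belongs to both genes.

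A ribosome is built from a small subunit that reads the mRNA and a large subunit that joins amino acids, and each ribosomal protein is normally needed once per ribosome. The genes are scattered over the chromosomes and are transcribed strongly in dividing cells. Their mRNAs usually begin with a C followed by a run of pyrimidines, the terminal oligopyrimidine (TOP) tract, through which mTOR signalling sets their translation. When ribosome assembly is disturbed, the free proteins RPL5 and RPL11 bind MDM2 and stabilise p53. Inherited loss of 1 copy of RPS19, RPL5, RPL11, RPS24 and other members causes Diamond-Blackfan anaemia, and loss of RPS14 underlies the anaemia of the 5q deletion syndrome.

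The promoter sequences of 12 members, from 55 bases before the annotated start to 20 bases from it on, show the start tract and the motifs that recur among them. They were read from RefSeq promoters on GRCh38.p14 (the same build as hg38) and are printed from the 5′ to the 3′ end of the gene's own strand. Capitals mark a TOP tract at the start and any match, on either strand, to the letters CCGGAAG (the core bound by ETS factors), AAGATGG (bound by YY1, with no match in these stretches), GGGCGG (bound by SP1), TCGCGAG, or TATAA. The first 4 are members on chromosome 6 that were higher in paclitaxel-resistant cells.
RPS12: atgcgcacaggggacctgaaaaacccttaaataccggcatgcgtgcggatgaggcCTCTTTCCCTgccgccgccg
RPS18: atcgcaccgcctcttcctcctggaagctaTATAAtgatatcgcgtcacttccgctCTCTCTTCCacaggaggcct
RPS10: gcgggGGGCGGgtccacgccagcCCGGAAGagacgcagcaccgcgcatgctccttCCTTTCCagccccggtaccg
RPL10A: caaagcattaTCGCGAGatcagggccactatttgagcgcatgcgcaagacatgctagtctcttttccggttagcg
These lie at chr6:132814514-132814588 (plus strand), chr6:33272020-33272094 (plus), chr6:34426050-34426124 (minus) and chr6:35468346-35468420 (plus). The first 3 begin with a TOP tract of 10, 9 and 7 pyrimidines, whereas the annotated start of RPL10A does not meet the definition. The next 5 are members that were called in cisplatin-resistant or dual-resistant cells.
RPL27: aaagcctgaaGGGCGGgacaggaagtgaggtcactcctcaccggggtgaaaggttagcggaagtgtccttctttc
RPS6: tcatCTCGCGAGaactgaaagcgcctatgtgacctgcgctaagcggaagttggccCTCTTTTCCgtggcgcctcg
RPL22: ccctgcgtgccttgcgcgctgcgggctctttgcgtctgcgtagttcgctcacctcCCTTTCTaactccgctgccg
RPL11: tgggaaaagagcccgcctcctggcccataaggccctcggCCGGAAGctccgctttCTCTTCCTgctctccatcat
RPS24: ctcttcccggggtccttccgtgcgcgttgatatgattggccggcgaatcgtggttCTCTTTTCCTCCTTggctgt
They lie at chr17:42998364-42998438 (plus), chr9:19380217-19380291 (minus), chr1:6199576-6199650 (minus), chr1:23691751-23691825 (plus) and chr10:78033808-78033882 (plus). The RPS24 tract, at 14 pyrimidines, is the longest of the 12, and RPL27 has none at its annotated start. The last 3 are well-studied members that were called in no comparison with control.
RPS14: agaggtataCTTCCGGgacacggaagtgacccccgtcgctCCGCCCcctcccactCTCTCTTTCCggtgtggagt
RPS19: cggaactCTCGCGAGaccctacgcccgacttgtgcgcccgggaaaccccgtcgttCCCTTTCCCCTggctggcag
RPLP0: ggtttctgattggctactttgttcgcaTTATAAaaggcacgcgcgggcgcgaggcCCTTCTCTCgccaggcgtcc
They lie at chr5:150449720-150449794 (minus), chr19:41860200-41860274 (plus) and chr12:120201092-120201166 (minus). Tracts of this kind therefore head the printed promoters of members that were called higher, called lower and not called.

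Across the 70 members in the promoter table that have a tested peak within 1 kb of an annotated start, 48 (68.6%) had a TOP start, taken as a C at the start followed by at least 4 pyrimidines, at 1 or more annotated starts. The share was 6.24% of all 15842 protein-coding genes with a promoter sequence. Among mitochondrial ribosomal protein genes, which serve the separate ribosome of the mitochondrion, the share was 6 of 69 (8.7%), and among translation factors and other TOP genes it was 17 of 22 (77.3%). The most frequent first 8 bases were CTCTTTCC, at 5 starts. Within the 300 bases from 250 before to 50 after the start, on both strands, TCGCGAG was in 20% of the members against 4.01% of all genes and 4.35% of mitochondrial ribosomal protein genes. The ETS core CCGGAAG was in 34.3% of members, 43.5% of mitochondrial ribosomal protein genes and 16.5% of all genes. AAGATGG was in 12.9%, 34.8% and 7.9% of the same sets. GGGCGG (58.6% of members against 64.3% of all genes) and TATAA (21.4% against 20.9%) were about as frequent in the members as elsewhere. The motifs searched do not share letters in full, but matches of different motifs can overlap. These counts describe letters in a window and not bound sites.

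The gene-end peak coincided with the annotated start in most members. The start lay inside the peak in 62 of the 70, and the peak's centre was between 379 bp before and 134 bp after it, with a median 94 bp before. In the other 8, namely RPL26L1, RPL7L1, RPL27A, RPL41, RPL6, RPL4, RPL38 and RPL17, the gene-end peak lay away from the annotated start. In RPL26L1 and RPL6 it was weaker than the peak at that start (means of 1.92 against 58.2 CPM, and 18.1 against 24.9 CPM), which lies inside the gene and more than 1 kb from both of its ends. Both peaks of all 8 are drawn in the plot of gene-end and start peaks. The remaining 19 members with a gene-end peak, among them RPL7, RPL5, RPS20 and RPL30, were not matched in the promoter table.

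Ribosomal protein gene ends were open in every library, apart from RPL26L1 in paclitaxel-resistant library 2. Levels are CPM as deposited, read counts scaled to a common library total, and the libraries held 7693492 to 9304798 such reads, so that a peak without reads could have up to 0.322 to 0.390 CPM (3 reads per library, counting error only). In paclitaxel-resistant library 2 this limit was 0.337 CPM, and the gene-end peak of RPL26L1 was at it. The median of the members' mean levels was 39.8 CPM, with the middle 50% from 26.7 to 47.4, against 20.1 CPM over all protein-coding gene ends. At least 10 CPM was reached by 87 of 89 members (97.8%), against 68.3% of all gene ends. The large-subunit and small-subunit genes had medians of 40.1 and 40.6 CPM, the mitochondrial ribosomal protein genes 35.8 CPM, the translation factors and other TOP genes 44.1 CPM and the ribosome biogenesis genes 40.9 CPM. The median member had 34.0 and 35.0 CPM in the cisplatin-resistant libraries. It had 41.2 and 42.5 CPM in the paclitaxel-resistant, 37.1 and 38.8 CPM in the dual-resistant and 39.5 and 39.5 CPM in the control libraries.

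Among the highest members were RPL41 (80.5 CPM), RPL7 (73.9), RPL27 (71.3) and RPS19 (69.1 CPM, mean over 8 libraries). RPL41, the shortest ribosomal protein, was measured at a peak that lies away from its annotated start and is shared with ZC3H10. It had 86.3 and 90.4 CPM in the cisplatin-resistant, 84.9 and 93.5 in the paclitaxel-resistant, 70.2 and 65.1 in dual-resistant and 71.2 and 82.1 in control libraries, and was called in none of the comparisons with control. The lowest 2, RPL26L1 (1.92 CPM) and RPL10L (2.37 CPM), are paralogs, and they alone averaged under 10 CPM at the gene-end peak. For RPL26L1 that peak is a minor site, since its start peak averaged 58.2 CPM. RPL10L had 1.80 and 1.52 CPM in the cisplatin-resistant, 3.28 and 1.91 in the paclitaxel-resistant, 2.97 and 2.58 in dual-resistant and 2.73 and 2.19 in control libraries. RPL17-C18orf32, RPL6 and RPS21 followed at 15.8, 18.1 and 18.9 CPM, and RPL6 was stronger at its annotated start, as given above. All peaks have the same width, so these levels are per equal length and can be compared between genes.

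**Figure D1:**
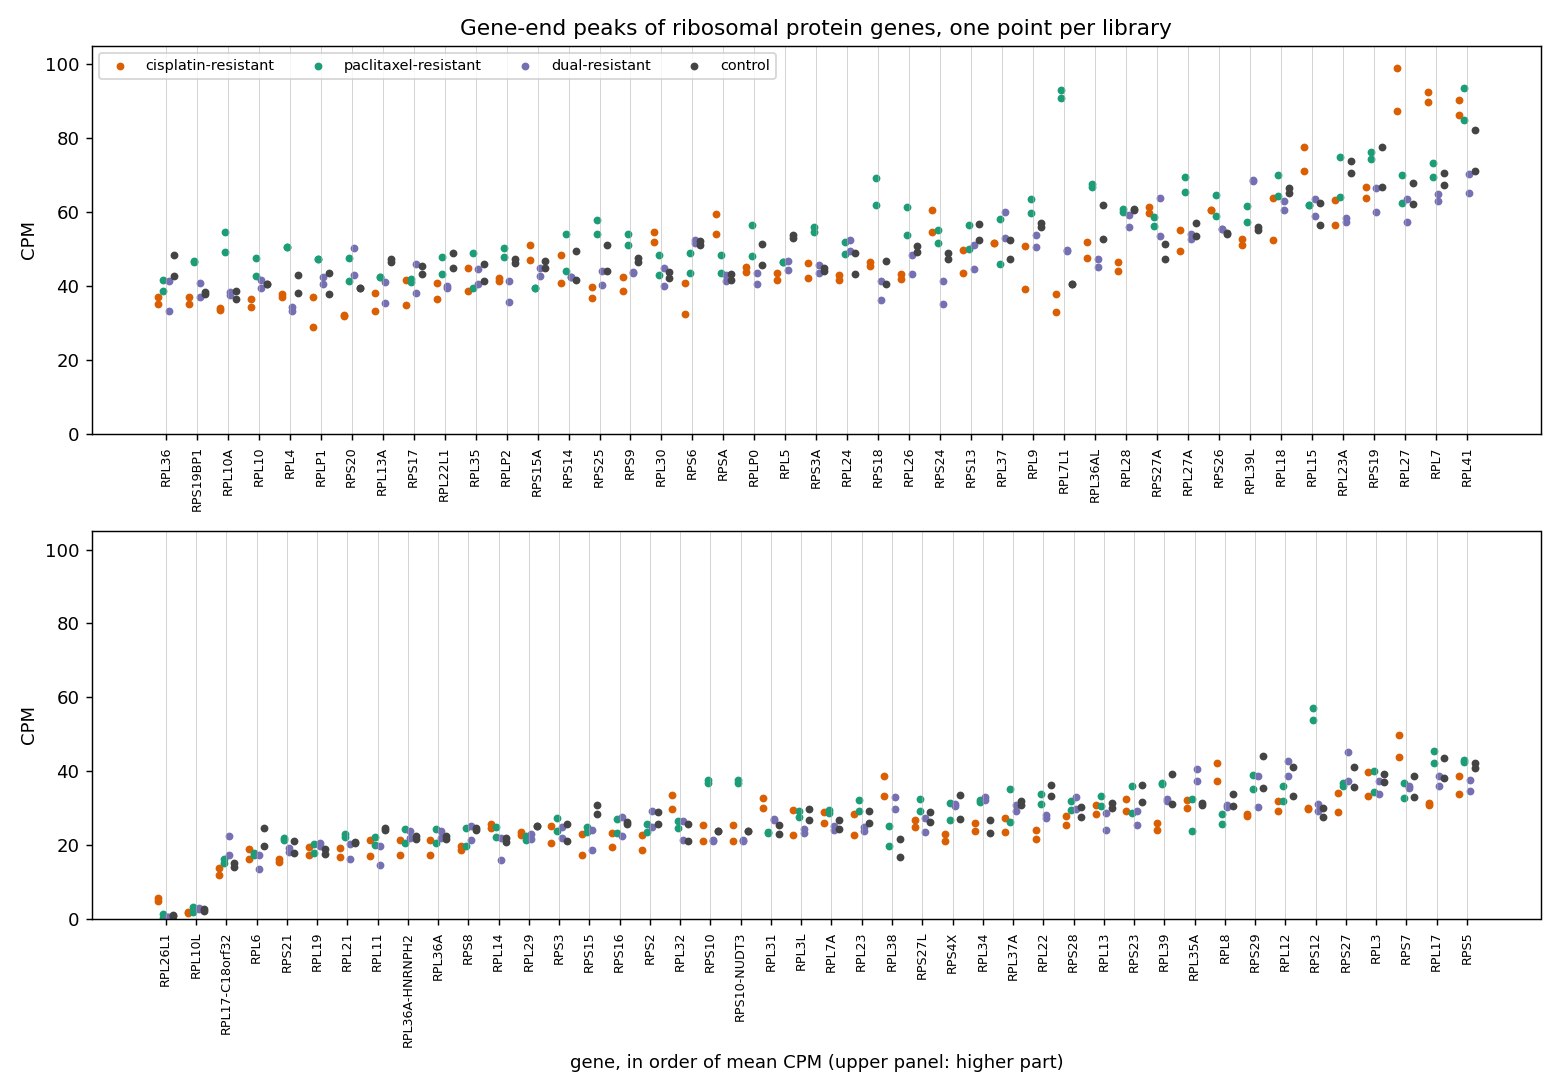
Level of the gene-end peak (CPM) of 87 of the 89 members, in order of mean level, with the higher part in the upper panel; each gene has 8 points, the 2 libraries of cisplatin-resistant, paclitaxel-resistant, dual-resistant and control cells. All genes drawn but RPL26L1 and RPL10L averaged over 10 CPM, and the points of RPL7L1, RPS12, RPS18 and RPS10 in paclitaxel-resistant libraries stand above those of the other lines.

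Levels differed little between lines. The range of the 4 group means on the log2 scale had a median of 0.39 in the members and 0.56 over all gene ends. The median was much the same in other translation genes. It was 0.38 in mitochondrial ribosomal protein genes, 0.40 in translation factors and other TOP genes and 0.39 in ribosome biogenesis genes. A range of 1 or more, a doubling, was found in 2 of 89 members (2.25%), RPL26L1 and RPL7L1, against 22.8% of all gene ends. The share was 9.09% of mitochondrial ribosomal protein genes, 5% of ribosome biogenesis genes and none of the 32 translation factors and other TOP genes. Weak peaks vary more on this scale, and the members are stronger than the average gene end. Of 89 members, 43 (48.3%) were called in none of the comparisons with control, against 41.7% of all gene ends. RPS14, RPS19, RPLP0, which forms the stalk that recruits translation factors, RPL10, which is needed for subunit joining, RPL3L, a muscle paralog of RPL3, RPS27L, a p53 target, and RPS19BP1 were among these 43. In RPS19, for example, values were 66.7 and 63.7 CPM in the cisplatin-resistant, 76.4 and 74.5 in the paclitaxel-resistant, 66.6 and 60.1 in dual-resistant and 77.7 and 66.9 CPM in control libraries.

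Cisplatin-resistant cells differed from control at 30 members, in both directions. Of 89 gene ends, 11 were higher (12.4%, against 11.1% of all gene ends called higher) and 19 lower (21.3%, against 28.6% of all gene ends called lower). Calls are limma's, on log2(CPM + 0.5) with p-values adjusted by Benjamini-Hochberg for the 158698 peaks tested and a threshold of 0.05. The members' median log2 difference was -0.14, and that of all gene ends was -0.19. The share of higher members was near its background and that of lower members was under it. In bulk libraries, more cells with an open site, a more open site in each cell and more DNA copies of a site cannot be told apart.

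Among the higher members, the large-subunit genes were RPL38, RPL27, RPL7, RPL15, RPL32, RPL30 and RPL31, and the small-subunit genes were RPSA, RPS7 and RPS27A. RPL27 (chr17:42997810-42998810) had 87.3 and 99.2 CPM in cisplatin-resistant libraries, 62.5 and 70.0 in paclitaxel-resistant, 63.6 and 57.3 in dual-resistant and 62.3 and 68.0 in control libraries. Both cisplatin-resistant libraries were above all 6 others, and the log2 difference from control was 0.51 ± 0.09 (SE, n = 2 libraries a group, limma adjusted p = 2.4e-06). RPL7 (chr8:73293592-73294592), whose peak also serves RDH10, had 89.8 and 92.5 CPM in cisplatin-resistant and 70.7 and 67.3 CPM in control libraries, a log2 difference of 0.40 ± 0.09 (limma adjusted p = 0.00012). RPSA, the laminin receptor precursor and a small-subunit protein, had 54.1 and 59.4 CPM against 41.7 and 43.4 CPM in control libraries (0.41 ± 0.11, limma adjusted p = 0.0012). RPL15, RPS7 and RPL32 were higher by 0.32, 0.38 and 0.42, and RPL31, RPL30 and RPS27A, which encodes a fusion with ubiquitin, by 0.37, 0.31 and 0.29. None of these 10 genes doubled, and RPL38 came closest at 0.90.

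RPL38 and RPL26L1 were higher at peaks away from their annotated starts. RPL38, a large-subunit protein that in mice is needed for translation of Hox mRNAs, was measured at chr17:74210220-74211220, whose centre lies 7042 bp downstream of its start. That peak had 33.2 and 38.8 CPM in the cisplatin-resistant, 19.7 and 25.2 in the paclitaxel-resistant, 33.1 and 29.7 in dual-resistant and 16.6 and 21.6 CPM in control libraries, a log2 difference of 0.90 ± 0.14 in cisplatin-resistant cells (limma adjusted p = 8.4e-08) and 0.71 ± 0.14 in dual-resistant cells (limma adjusted p = 4.8e-05). At the start peak of RPL38 the differences in cisplatin-, paclitaxel- and dual-resistant cells were -0.04, -0.29 and 0.27, and none was called. RPL26L1 had 4.73 and 5.73 CPM in cisplatin-resistant libraries, 1.46 and 0.337 in paclitaxel-resistant, 0.618 and 0.645 in dual-resistant and 1.04 and 0.772 CPM in control libraries, at a weak peak whose centre is at -5316 bp from the annotated start. The log2 difference of 2.03 ± 0.46 (limma adjusted p = 0.00019) was the largest of the members, whereas at its start peak, with 63.1 and 55.9 CPM in cisplatin-resistant and 62.5 and 56.6 in control libraries, the difference was -0.0024. Read at the peak on the annotated start in every case, 7 of 70 members were higher (10%, against 9.68% of start peaks of all genes) and 13 lower (18.6%, against 29.7%).

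The 19 lower members spanned both subunits. RPL22, a large-subunit protein that also binds an Epstein-Barr virus RNA, had 24.0 and 21.7 CPM in cisplatin-resistant and 33.4 and 36.2 CPM in control libraries, a log2 difference of -0.60 ± 0.13 (limma adjusted p = 1.0e-04). RPS6, the small-subunit protein phosphorylated by S6 kinase downstream of mTOR, had 32.4 and 40.9 CPM in the cisplatin-resistant, 48.9 and 43.6 in the paclitaxel-resistant, 52.4 and 51.7 in dual-resistant and 52.1 and 51.0 CPM in control libraries (-0.50 ± 0.11 in cisplatin-resistant cells, limma adjusted p = 0.00012). Its 2 cisplatin-resistant libraries were below the 6 others. RPS15 (-0.56), RPS29 (-0.49), RPL39, which lines the exit tunnel (-0.47), RPS4X, the X-linked small-subunit gene (-0.45), and RPL28 (-0.43) followed, with RPL13A, RPL17, RPL9 and RPL5 between -0.39 and -0.32. Others were RPL23A, RPS25, RPL36, RPS2, RPS20, RPLP1 and the paralog RPL22L1, from -0.39 to -0.27. RPL5 fell by 0.32 to 41.8 and 43.6 CPM, against 53.0 and 53.9 CPM in control libraries, and its partner RPL11 had 21.3 and 17.1 CPM against 24.6 and 24.1 CPM in control libraries, a log2 difference of -0.34 that was not called (limma adjusted p = 0.077).

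The balance of higher and lower members depended on how libraries were scaled. With quantile, median-ratio and cyclic loess scaling, 16, 15 and 16 members were higher in cisplatin-resistant cells than in control and 7, 9 and 6 lower. Of all gene ends 14.3%, 14.7% and 16.7% were then higher and 21.5%, 17.5% and 13.5% lower. With edgeR and DESeq2 14 members were higher each and 10 and 4 lower, against 13.5% and 11.7% of all gene ends higher and 20.2% and 11.7% lower. Under the 3 scalings the median over all gene ends moved from -0.19 to -0.11, -0.08 and -0.02. Relative to all gene ends the members' median was 0.04 higher as deposited and 0.10, 0.05 and 0.05 higher after scaling. Without control library 1 the counts were 6 higher and 11 lower, and without cisplatin-resistant library 1 the higher members numbered 7.

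**Figure D2:**
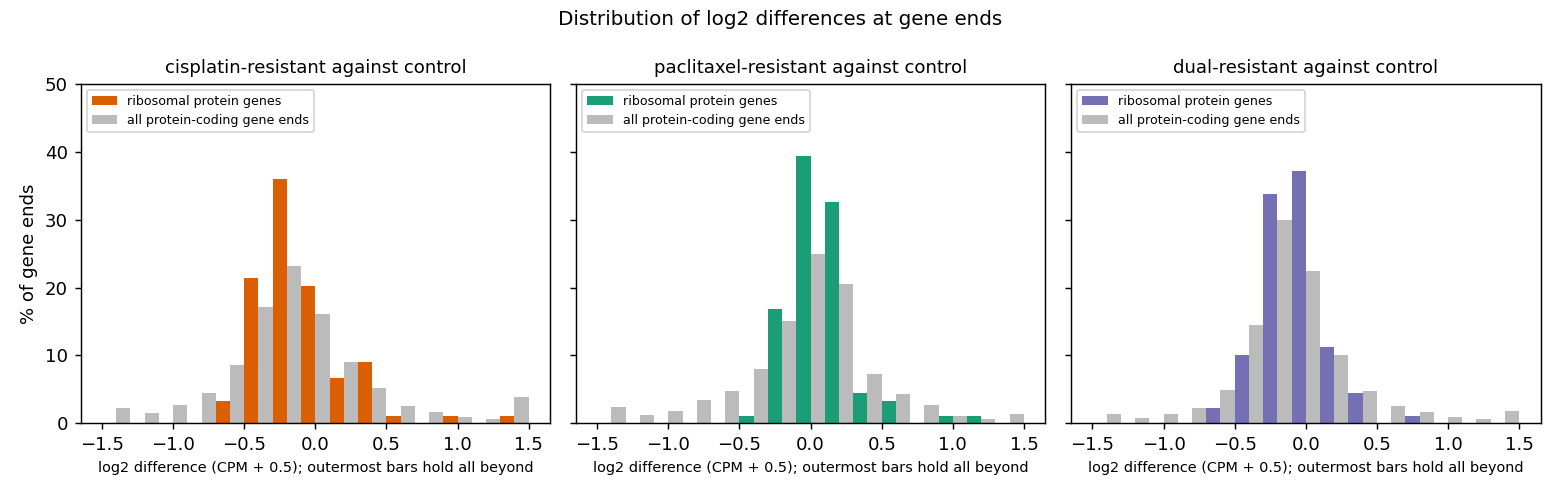
Share of gene ends (%) by log2 difference from control in cisplatin-, paclitaxel- and dual-resistant cells, coloured for the 89 members and grey for all 15952 protein-coding gene ends; the outermost bars hold everything beyond. The members' medians of -0.14, 0.06 and -0.08 lie close to those of all gene ends (-0.19, 0.01 and -0.13), and the grey bars reach further out on both sides.

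Paclitaxel-resistant cells differed from control at few members, and most of these were on chromosome 6. Of 89 gene ends 9 were higher (10.1%, against 12.7% of all gene ends called higher) and 0 lower (against 9.68% of all gene ends called lower). At an unadjusted p under 0.05 there were 15 members in either direction, against 34.4% of all gene ends, and edgeR and DESeq2 also called 0 lower. All 6 members on chromosome 6, at 5 distinct peaks, were higher, namely RPL7L1, RPS12, RPS18, RPL10A, RPS10 and RPS10-NUDT3, the last 2 at 1 peak. The other 3 were RPS3A, RPL27A and RPL4, so that 3 of 83 members elsewhere in the genome were higher (3.61%), against 9.87% of all gene ends outside chromosome 6.

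RPL7L1, a paralog of RPL7 that acts in ribosome assembly, was measured at chr6:42890222-42891222, a peak it shares with PEX39. It had 90.8 and 92.9 CPM in paclitaxel-resistant libraries, 33.1 and 37.9 in cisplatin-resistant, 49.5 and 49.7 in dual-resistant and 40.4 and 40.4 CPM in control libraries. The paclitaxel-resistant value was more than double the control value (log2 difference 1.17 ± 0.10, limma adjusted p = 6.5e-18), with no overlap between the groups. At its annotated start, 11106 bp away, RPL7L1 had 72.7 and 73.9 CPM in paclitaxel-resistant and 43.3 and 37.6 CPM in control libraries, and it was called there too (0.85 ± 0.11, limma adjusted p = 1.5e-10). RPS12 (chr6:132813872-132814872) had 53.8 and 57.2 CPM in paclitaxel-resistant, 29.9 and 29.8 in cisplatin-resistant, 29.3 and 31.2 in dual-resistant and 27.6 and 30.0 CPM in control libraries. The 3 other lines were within 4 CPM of each other in RPS12, and the log2 difference of paclitaxel-resistant cells from control was 0.94 ± 0.12 (limma adjusted p = 2.4e-10).

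RPS18, at chr6:33271333-33272333, had 69.2 and 61.9 CPM in paclitaxel-resistant and 40.4 and 46.9 CPM in control libraries, a log2 difference of 0.58 ± 0.11 (limma adjusted p = 7.6e-06). RPS10 had 37.6 and 36.9 CPM in paclitaxel-resistant and 23.9 and 23.7 CPM in control libraries (0.64 ± 0.14, limma adjusted p = 0.00017). RPL10A, whose peak also serves FANCE, had 54.6 and 49.2 CPM in paclitaxel-resistant and 36.5 and 38.6 CPM in control libraries (0.46 ± 0.11, limma adjusted p = 0.0012). In each of these genes both paclitaxel-resistant libraries were above the 6 other libraries. Outside chromosome 6, RPL4 was higher by 0.32, RPS3A by 0.31 and RPL27A by 0.29, and the 3 limma adjusted p-values lay between 0.028 and 0.037. RPL27A and RPL4 were measured away from their annotated starts, where the differences were -0.04 and 0.29 and neither was called.

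Most gene ends on chromosome 6 were higher in paclitaxel-resistant cells. Of 824 protein-coding gene ends on it, 539 were higher than in control and 21 lower, with a median log2 difference of 0.64, and the 6 members had the same median, 0.64. After the median of gene-end peaks in the same 5-Mb window was subtracted (an alternative chosen after the data were seen), 1 of the 6, RPL7L1, was still called, at 0.58, while RPS18 and RPL10A had values of -0.04 and -0.05. With the median of all peaks in the window subtracted instead, 2 of the 6 were called, RPL7L1 at 0.66 and RPS12 at 0.51. The 6 then had a median of 0.20, and 25.5% of all gene ends on the chromosome were called higher. The 6 were all called under the 3 other scalings, with edgeR and with DESeq2. In cisplatin-resistant and dual-resistant cells the median of all gene ends on chromosome 6 was 0.01 and -0.12, and 0 and 1 of the 6 members were called. What sets the level of chromosome 6 in these lines was not tested.

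Outside chromosome 6 the count depended on the scaling. Over all 89 members, 26 were higher and 0 lower in paclitaxel-resistant cells with median-ratio scaling, which moved the median of all gene ends to 0.18, and 6 were higher and 3 lower with quantile or cyclic loess scaling, the 6 being those on chromosome 6. With edgeR and DESeq2 on the recovered reads, 24 and 18 were higher. Of all gene ends 26.3% were higher with median-ratio scaling, 25.6% with edgeR and 20.4% with DESeq2, while 5.81%, 5.8% and 3.96% were lower. Of all gene ends 9.09% and 10.5% were higher and 9.6% and 9.37% lower with quantile and cyclic loess scaling. Without paclitaxel-resistant library 1, 5 members were higher. None of the 3 calls outside chromosome 6 held without either paclitaxel-resistant library or without control library 1.

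Dual-resistant cells differed from control at 12 members. Of 89, 4 were higher (4.49%, against 4.86% of all gene ends called higher) and 8 lower (8.99%, against 14.8% of all gene ends called lower), with a median of -0.08 against -0.13 over all gene ends. The higher members were RPL38, described above, RPL34, RPL7L1 and RPL39L, the paralog of RPL39 expressed in testis. RPL39L had 68.7 and 68.4 CPM in dual-resistant, 52.7 and 51.0 in the cisplatin-resistant, 57.4 and 61.7 in the paclitaxel-resistant and 55.9 and 55.1 CPM in control libraries. Its dual-resistant values were above those of the 3 other lines, by a log2 difference of 0.30 ± 0.10 from control (limma adjusted p = 0.021). RPL34 had 32.3 and 32.9 CPM in dual-resistant and 23.1 and 26.9 CPM in control libraries (0.38 ± 0.13, limma adjusted p = 0.038). RPL7L1 was higher by 0.29 at its gene-end peak and differed by -0.0012 at its annotated start.

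The 8 lower members included genes of both subunits. RPL11, the partner of RPL5 in binding MDM2, had 14.5 and 19.8 CPM in dual-resistant and 24.6 and 24.1 CPM in control libraries (-0.51 ± 0.15, limma adjusted p = 0.015), with dual-resistant libraries that differed from each other by more than 5 CPM. RPS24, a gene of Diamond-Blackfan anaemia, had 35.2 and 41.3 CPM in dual-resistant, 54.7 and 60.5 in the cisplatin-resistant, 51.6 and 55.2 in the paclitaxel-resistant and 47.3 and 49.0 CPM in control libraries (-0.33 ± 0.10 from control, limma adjusted p = 0.020). RPS24 was thus lower in dual-resistant libraries and not called in the single-resistant lines, in which it had log2 differences of 0.25 and 0.15. Others were RPL6 (-0.51, at a peak shared with PTPN11 and away from its start, where the difference was -0.0025), RPS15 (-0.47), RPL23A (-0.32) and RPL36AL (-0.30).

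The dual-resistant counts rested on single libraries more than the others. The shares of all gene ends with 1 library left out are not reported here, so whether such drops are particular to the members is open. Lower members numbered 1 without dual-resistant library 1, 2 without control library 2 and 4 without control library 1, and higher members numbered 1 without dual-resistant library 1 or control library 1 and 2 without dual-resistant library 2 or control library 2. Their direction also turned with the scaling, with 10 and 9 higher against 3 and 1 lower under quantile and cyclic loess scaling, and 1 higher against 18 lower under median-ratio scaling. With edgeR and DESeq2, 1 member was higher and 20 and 8 were lower. Of all gene ends 6.11% and 6.19% were higher and 8.41% and 7.9% lower with quantile and cyclic loess scaling, and 3.87%, 3.76% and 2.79% were higher and 23.3%, 25.6% and 14.8% lower with median-ratio scaling, edgeR and DESeq2.

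The comparisons with control share the control libraries, so common calls are given as values only. No member was called in the same direction in all 3. RPL38 was higher in cisplatin-resistant (0.90) and dual-resistant cells (0.71), with 0.22 in paclitaxel-resistant cells. RPS15 had values of -0.56, -0.29 and -0.47 and RPL23A of -0.27, -0.06 and -0.32 in cisplatin-, paclitaxel- and dual-resistant cells, and each was called in the first and last of these. RPL7L1 had -0.19, 1.17 and 0.29, and was called in paclitaxel- and dual-resistant cells.

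The resistant lines were also set against each other. Dual-resistant against cisplatin-resistant cells gave 28 called members (against 36.5% of all gene ends). In dual-resistant cells 15 were higher and 13 lower, against 19.6% and 16.9% of all gene ends. RPL26L1, at its weak gene-end peak, had the largest difference, -2.33, and was called lower. RPL27 had a log2 difference of -0.62 ± 0.09 (limma adjusted p = 1.4e-08), RPS24 of -0.59 ± 0.10 (limma adjusted p = 2.2e-06), RPL7 of -0.51 ± 0.09 (limma adjusted p = 9.1e-07) and RPS6 of 0.51 ± 0.11 (limma adjusted p = 6.1e-05). Dual-resistant against paclitaxel-resistant cells gave 21 called members (against 31.9% of all gene ends). In dual-resistant cells 2 were higher and 19 lower, against 7.58% and 24.3% of all gene ends. The 19 included all 6 on chromosome 6, among them RPL7L1 (-0.88 ± 0.10) and RPS12 (-0.87 ± 0.12), and the 2 higher were RPL38 (0.49) and RPL35A. Paclitaxel-resistant against cisplatin-resistant cells gave 38 called members (against 47.6% of all gene ends). In paclitaxel-resistant cells 28 were higher and 10 lower, against 34.5% and 13.1% of all gene ends. RPL7L1 again differed by the most among those higher (1.36 ± 0.10), RPL10A had 0.61 ± 0.11, and RPL38 and RPL27 were lower by -0.68 ± 0.14 and -0.49 ± 0.09. RPL26L1, at its weak gene-end peak, had -2.16. The members RPL38, RPL26L1, RPL27, RPL7, RPSA, RPL15, RPS7 and RPL31 were higher in cisplatin-resistant cells than in control. Each of them was lower in paclitaxel-resistant cells than in cisplatin-resistant cells. Both comparisons use the same cisplatin-resistant libraries, so the second is not separate evidence. RPL32, RPL30 and RPS27A, also called higher than control in cisplatin-resistant cells, had differences of -0.30, -0.22 and -0.08 between these lines and were not called. With median-ratio scaling, edgeR and DESeq2, the called members between dual-resistant and paclitaxel-resistant cells numbered 57, 59 and 49, against 52%, 53.1% and 43.2% of all gene ends. Without cisplatin-resistant library 1 the first of these 3 comparisons gave 18 called members, and without paclitaxel-resistant library 1 the second gave 13.

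In cisplatin- and paclitaxel-resistant cells most called members changed in the direction of the gene ends around them. For each of the 87 distinct peaks the median log2 difference of all other gene ends within 2.5 Mb was taken. Of 30 called members in cisplatin-resistant cells 29 lay on the same side of 0 as that median, RPL26L1 being the exception. All 19 lower members had neighbours below 0, as did 68 of all 87. Of the 11 higher members 10 had neighbours above 0, as did 19 of all 87. RPL27, for example, lay among 107 gene ends with a median of 0.36 and RPS7 among 7 with a median of 0.40, whereas RPS6 lay among 12 with a median of -0.41 and RPL22 among 27 with a median of -0.35. In paclitaxel-resistant cells the 8 called peaks were all on the side of their neighbours, whose median was 1.08 around RPS12, while 40 of all 87 had neighbours above 0. In dual-resistant cells 7 of 8 lower members had neighbours below 0, as did 75 of all 87, so that the lower calls there stood at the level of all members. Of the 4 higher members 2 had neighbours above 0, as did 12 of all 87. The members on the other side were RPL7L1, RPL34 and RPS24. Across the 87 peaks the member and its neighbours correlated with Pearson's r of 0.61, 0.69 and 0.43 and Spearman's rho of 0.66, 0.34 and 0.30 in cisplatin-, paclitaxel- and dual-resistant cells. These are descriptions over genes that share libraries and, in part, neighbours.

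**Figure D3:**
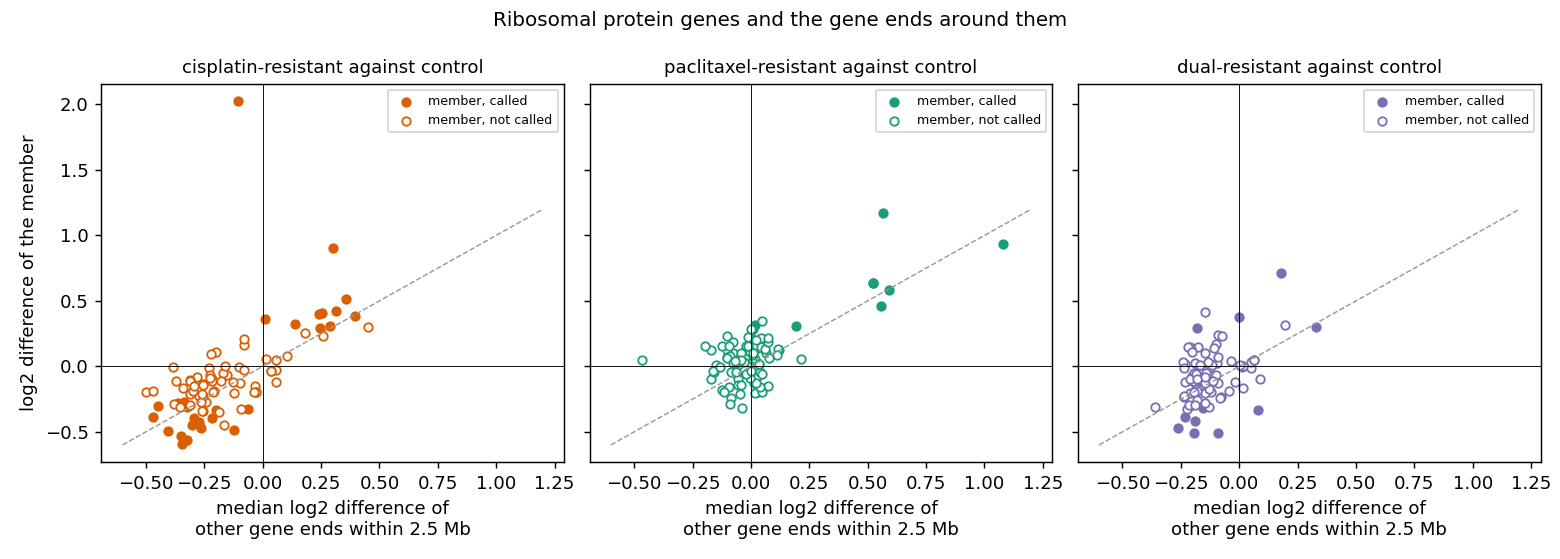
Log2 difference from control of each member (87 distinct peaks) against the median of the other gene ends within 2.5 Mb, in cisplatin-, paclitaxel- and dual-resistant cells; filled points were called and the dashed line marks equal values. Filled points above 0 lie mostly right of 0, those below 0 mostly left of it, and RPL26L1 is the point at 2.03.

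Chromosome by chromosome, the 12 members on chromosome 19 were all below control in cisplatin-resistant cells, 5 of them called lower, as were 39.5% of all 1203 gene ends of that chromosome, with medians of -0.24 and -0.27. On chromosome 2, 3 of 4 members were higher, with a median of 0.33, while 15.8% of all gene ends there were higher and their median was -0.11. The gene ends within 2.5 Mb had medians of 0.40 around RPS7, 0.25 around RPS27A and 0.01 around RPL31. Around RPL37A, which was not called, their median was -0.35. On chromosome 3, 3 of 9 were higher and 1 lower, against 18.8% and 18.7% of 861 gene ends. On chromosome 8, RPL7 and RPL30 were higher and RPS20 lower of 4, against 31.5% and 20.5% of 562 gene ends. On the X chromosome 0 of 5 were higher and 2, RPS4X and RPL39, lower, against 5.63% and 22.5% of 533 gene ends. Each chromosome holds few members, and none of these differences from its gene ends was tested.

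**Figure D4:**
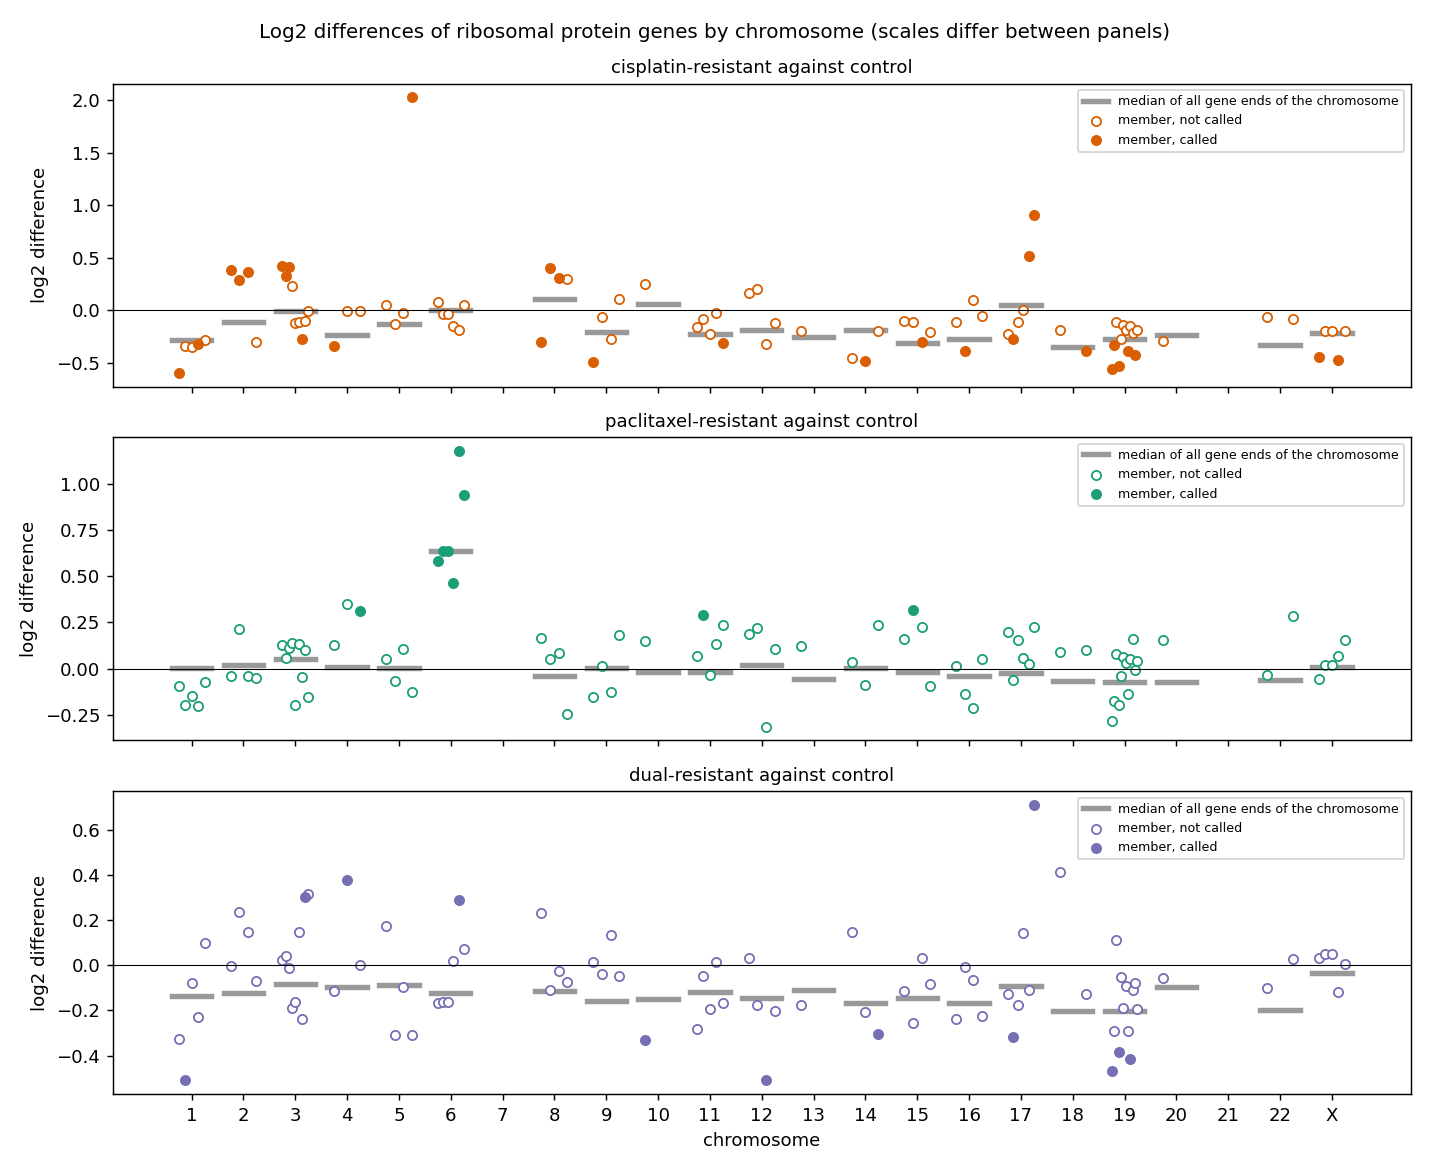
Log2 difference from control of each member by chromosome, one panel per resistant line with its own scale; filled points were called, open points were not, and grey bars are the medians of all protein-coding gene ends of the chromosome. On chromosome 6 the 6 members and the bar at 0.64 stand above the others in paclitaxel-resistant cells, and on chromosome 19 all 12 members are below 0 in cisplatin-resistant cells.

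With the gene-end median of the same 5-Mb window subtracted, 7 members were higher and 0 lower in cisplatin-resistant cells, 4 and 0 in paclitaxel-resistant cells and 6 and 1 in dual-resistant cells. Of all gene ends 11.3% and 8.54%, 7.67% and 8.16%, and 6.33% and 5.53% were then higher and lower. Of the 46 calls against control among the members named here, 9 held, those of RPL26L1 (2.12), RPL38 (0.64) and RPL7 (0.25) in cisplatin-resistant cells, of RPL7L1 (0.58) and RPL27A (0.28) in paclitaxel-resistant cells, and of RPL7L1 (0.48), RPL34 (0.46), RPL38 (0.45) and RPS24 (-0.33) in dual-resistant cells. Subtracting the median of all peaks of the window, which also holds the peaks between genes, gave 4 higher and 7 lower, 31 and 1, and 0 and 16 in the same 3 comparisons, against 9.15% and 19.9%, 22.9% and 6.15%, and 3.76% and 21.2% of all gene ends. The median under this subtraction was 0.17 over all gene ends and 0.28 in the members in paclitaxel-resistant cells. How far the 31 calls follow the shift of all gene ends was not tested. The all-peak subtraction left 16 of the 46 named calls in place, whereas the gene-end subtraction was chosen after the data were seen.

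**Figure D5:**
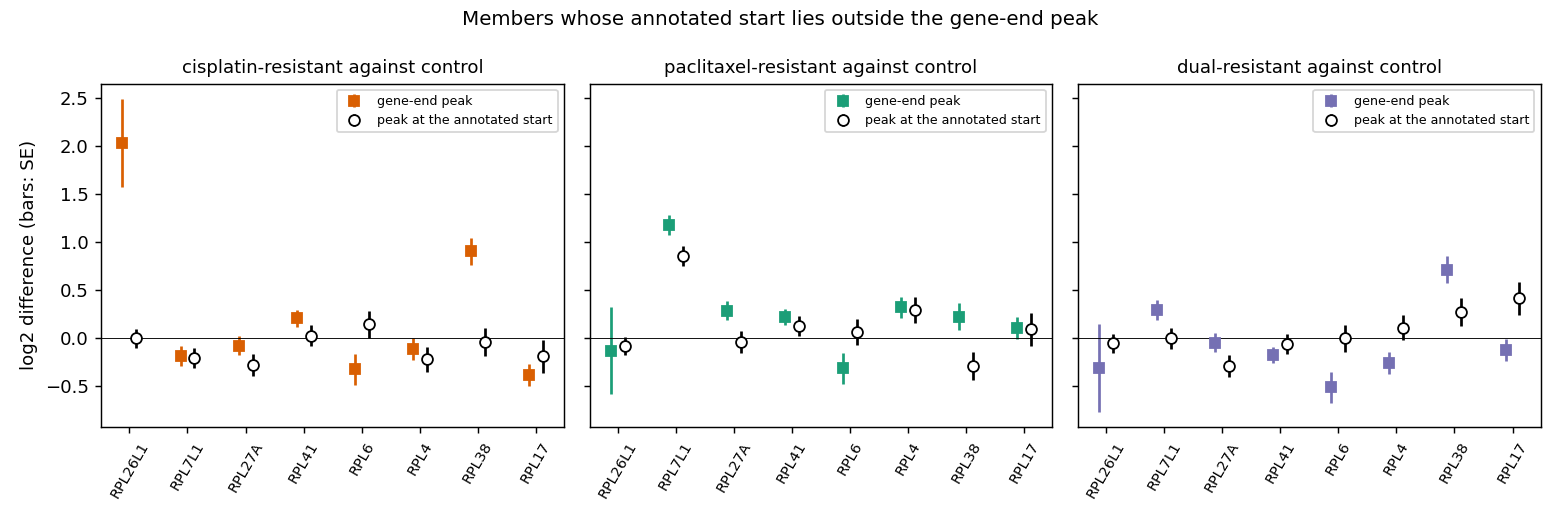
Log2 difference from control, with SE bars, at the gene-end peak (filled squares) and at the peak on the annotated start (open circles) of the 8 members in which these peaks differ, for cisplatin-, paclitaxel- and dual-resistant cells. RPL26L1 and RPL38 are high only at the gene-end peak in cisplatin-resistant cells (2.03 and 0.90 against -0.0024 and -0.04), and RPL7L1 is high at both in paclitaxel-resistant cells (1.17 and 0.85).

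Other genes of the translation machinery were counted in the same way. Of 77 mitochondrial ribosomal protein genes, 6 were higher and 27 lower in cisplatin-resistant cells, 13 and 1 in paclitaxel-resistant cells and 1 and 12 in dual-resistant cells, with medians of -0.24, 0.08 and -0.09. Of 32 translation factors and other TOP genes the counts were 4 and 11, 5 and 2, and 1 and 4, with medians of -0.18, 0.11 and -0.10. Of 40 ribosome biogenesis genes they were 4 and 11, 6 and 2, and 1 and 6, with medians of -0.16, 0.07 and -0.16. The shares of all gene ends higher and lower were 11.1% and 28.6%, 12.7% and 9.68%, and 4.86% and 14.8% in the same 3 comparisons. With cyclic loess scaling the cisplatin-resistant counts of these 3 lists turned to 12 higher and 6 lower, 7 and 2, and 7 and 3. All gene ends then had 16.7% higher and 13.5% lower. Within the members, 20 of 55 genes named RPL and 10 of 34 named RPS were called in cisplatin-resistant cells, 4 and 5 in paclitaxel-resistant cells and 9 and 3 in dual-resistant cells, against 39.7%, 22.4% and 19.7% of all gene ends.

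Markers of cell types with a tested gene-end peak were read in the same way. Of 10 ovarian and epithelial markers 2, EPCAM and MSLN, averaged at least 10 CPM, while PAX8, WT1 and KRT7 averaged 1.84, 3.92 and 2.46 CPM, so that gene-end levels alone do not show an epithelial identity. Summed levels of the 5 fibroblast markers were 65.7 and 68.8 CPM in the cisplatin-resistant, 65.7 and 67.4 in the paclitaxel-resistant, 44.3 and 45.0 in dual-resistant and 34.8 and 32.2 CPM in control libraries. Of these markers 2 averaged at least 10 CPM, COL1A1 and PDGFRB. The lowest value was 0.130 CPM, for DCN, which is under the 0.322 to 0.390 CPM that a peak without reads could have. Of 5 haematopoietic markers 1, SPI1, averaged at least 10 CPM, with list sums of 28.5 to 40.6 CPM over the libraries, and of 2 endothelial markers none did, with sums of 3.15 to 14.9 CPM. The part of these levels in the members' differences was not tested.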

How the data were processed

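ATAC-seq gave 8 libraries of A2780 cells in 4 groups, and the depth was 7693492 to 9304798 reads in peaks per library. The authors deposited 1 matrix of CPM values, counts scaled to a common total per library, over 159451 peaks of equal width. Bowtie2, Picard and MACS2 and the build hg38 are named in the submitters' processing notes. The sources used here do not give versions, the merging of peaks, the Tn5 shift or the treatment of multiply mapping reads. Because each library is scaled to a common total, a change shared by all peaks cannot be seen. Dividing by the CPM step gave whole reads for 100% of values within 0.01 read.

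Testing covered the 158698 peaks that reached 1 CPM in 2 or more libraries with limma 3.58.1 (R 4.3.3), with a variance trend on log2(CPM + 0.5) and all groups in 1 fit. It had 4 residual and 98.5 prior degrees of freedom, so an SE rests mostly on the trend over all peaks. P-values were adjusted by Benjamini-Hochberg over all tested peaks. Log2 differences understate the change of weak peaks. The script was tested on simulated data. Gene spans, symbols and promoter sequences came from RefSeq tables without exon positions, so whether a peak lies in an exon or intron was not resolved. Peak coordinates are 1-based.

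Named members were the called ones, up to 12 in each direction by smallest p for each comparison with control, the 5 highest and 5 lowest in mean CPM, and 14 always named for their known roles; others were named after their values were seen. Some genes that this rule selects are counted but not reported by name. The members and lists were chosen with earlier results of these data known. Alternatives were other pseudocounts (0.1 and 1 CPM), no filter, other scalings, regional subtraction, edgeR 4.0.16 and DESeq2 1.42.0 on recovered reads, a replicate block, a 250-bp window, annotated starts, standard proteins only, distinct peaks only and each library left out.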

Additional observations from a re-analysis of the deposited data

How the results depend on the processing

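The counts of called ribosomal protein gene ends are given in the order cisplatin-resistant higher and lower, paclitaxel-resistant higher and lower, and dual-resistant higher and lower, each against control, then called between dual-resistant and cisplatin-resistant, dual-resistant and paclitaxel-resistant, and paclitaxel-resistant and cisplatin-resistant cells. As reported they were 11, 19, 9, 0, 4, 8, 28, 21 and 38. They were 16, 7, 6, 3, 10, 3, 27, 19 and 22 with quantile scaling, 15, 9, 26, 0, 1, 18, 32, 57 and 50 with median-ratio scaling and 16, 6, 6, 3, 9, 1, 25, 19 and 24 with cyclic loess scaling. They were 14, 10, 24, 0, 1, 20, 29, 59 and 54 with edgeR and 14, 4, 18, 0, 1, 8, 21, 49 and 38 with DESeq2. With the regional median of all peaks subtracted they were 4, 7, 31, 1, 0, 16, 24, 53 and 46, and with that of gene-end peaks (chosen after the data were seen) 7, 0, 4, 0, 6, 1, 11, 8 and 7. At annotated starts, where 70 members could be counted, they were 7, 13, 6, 0, 1, 4, 20, 15 and 27, and with standard proteins only the dual-resistant higher members numbered 2. For annotated starts, the shares of all genes are given above only for cisplatin-resistant against control cells. Between resistant lines, shares under other settings are given only for dual- against paclitaxel-resistant cells with median-ratio scaling, edgeR and DESeq2. The other counts stand here without their background. Leaving out 1 library at a time gave 6 to 14, 11 to 19, 5 to 10, 0, 1 to 4, 1 to 9, 18 to 28, 13 to 21 and 30 to 40; the lone library left in a group is then assumed to vary like those of the other groups. No count moved by over 1.5 times with another pseudocount, without the filter, with the 250-bp window or with distinct peaks counted once (the last chosen after the data were seen). The cause of these shifts was not tested.

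Some single values changed sign. With the regional median of all peaks subtracted, the cisplatin-resistant difference was -0.15 for RPS27A, -0.014 for RPL32, -0.21 for RPL15, -0.085 for RPSA, -1.66 for RPS12, -0.33 for RPL7, -0.28 for RPL30, 0.29 for RPL27A, 0.073 for RPL23A and 0.11 for RPL17; it was -0.17 for RPL39L in dual-resistant cells, 0.58 for RPL7 between dual- and cisplatin-resistant cells and 0.091 for RPL27 between paclitaxel- and cisplatin-resistant cells. With that of gene-end peaks it was -0.073 for RPL30, 0.044 for RPL23A and 0.072 for RPL17 in cisplatin-resistant cells, -0.040 for RPS18 and -0.053 for RPL10A in paclitaxel-resistant cells, and -0.11 for RPL10A between paclitaxel- and cisplatin-resistant cells. At annotated starts RPL26L1 and RPL38 had -0.0024 and -0.036 in cisplatin-resistant cells, and, there and with the 250-bp window, RPL27A had -0.041 in paclitaxel-resistant and RPL7L1 -0.0012 in dual-resistant cells.

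Of the 46 named calls against control, 45 held with a pseudocount of 0.1 CPM, 46 with 1 CPM, 31, 38 and 28 with quantile, median-ratio and cyclic loess scaling, 39 with edgeR, 33 with DESeq2 and 26 to 42 with 1 library left out; RPL26L1 and RPL38 in cisplatin-resistant and RPL7L1 in paclitaxel-resistant cells held in all 19 refits, annotated starts and the 250-bp window apart. The replicate numbers only name libraries: same-numbered libraries of different groups had deviations that correlated at -0.0006 to 0.0033 over 6 pairs of groups. With the replicate number as a block the counts were again 11, 19, 9, 0, 4, 8, 28, 21 and 38, and all 46 named calls held. With 2 libraries a group, no single member can pass an exact test over libraries, so the calls rest on the spread pooled over all peaks.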
